A study of Mus musculus with 36 samples.

Results

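The genes described here are 53 components of the core spliceosome, the RNA and protein machine that removes introns from pre-mRNA. They were chosen by name, from the small nuclear ribonucleoproteins (snRNPs), the tri-snRNP, the Prp19 complex and the spliceosomal helicases, and not by a rule on measured values. Earlier results of these data were known when they were chosen. Of the 53 genes, 52 had at least 1 intron in the deposited tables, out of 31890 genes with a listed intron, and all 52 passed the filter on low counts in every fit. Snrpf, which encodes a further protein of the Sm ring, was not analysed here. The 52 genes held 612 listed introns, of which 591 belonged to the reference transcript of the gene and 1 was shared with another gene.

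RNA was sequenced from wild-type (WT) and Zrsr2-deficient (KO) mice on a C57BL/6 background. Cells of 3 WT and 3 KO male littermates were sorted into CMP, the common myeloid precursors, GMP, which give rise to granulocytes and monocytes, and MEP, which give rise to megakaryocytes and erythroid cells. A further 6 libraries, 3 WT and 3 KO, came from embryonic fibroblasts (MEF), and these embryos were male as well. The remaining 12 libraries were of Lin-Kit+ bone marrow cells, which lack lineage markers and carry the Kit receptor, cultured ex vivo after transduction with a control hairpin or with 1 of 2 hairpins against Zrsr1 (sh1 or sh10). WT and KO cells received each hairpin in 2 experiments, so that each of these 6 groups had 1 library per experiment. The labels give neither the allele by which Zrsr2 was disrupted nor the age of the mice, and Zrsr1 had no listed intron, so its knockdown cannot be read from these tables.

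In each round of splicing the U1 snRNP binds the start of an intron and the U2 snRNP its branch point, and the U4/U6.U5 tri-snRNP then joins. The Prp19 complex and a series of helicases turn this assembly into the active enzyme and later take it apart. A ring of Sm proteins surrounds the small nuclear RNAs U1, U2, U4 and U5, and a related ring of LSm proteins binds the end of U6. Most introns are removed by this major, or U2-type, spliceosome, while a small class of U12-type introns is removed by a minor spliceosome that has its own U11, U12, U4atac and U6atac RNAs but shares the U5 snRNP, the Sm ring, the SF3b complex and most later factors. Zrsr2 encodes a protein that binds the end of U12-type introns, and Zrsr1 is a closely related gene.

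Each library had 44083233 to 84832431 spliced counts in progenitors, 43514139 to 61124920 in fibroblasts and 30481450 to 43345548 in Lin-Kit+ cells. Zrsr2 had 0 to 5 spliced counts in KO progenitors against 1192 to 2147 in WT, 0 to 20 against 1134 to 1521 in fibroblasts, and 3 to 57 against 725 to 1085 in Lin-Kit+ cells, in the direction of the labels. The summed markers of MEP and erythroid cells stood at 7480.0 to 8367 CPM (spliced counts per 1000000 spliced counts of the library) in WT MEP against 132 to 252 in WT GMP, and the summed GMP markers at 25801 to 31109 in WT GMP against 36.6 to 57.6 in WT MEP. In the Lin-Kit+ libraries the summed markers of early progenitors, Kit among them, were 408 to 1319 CPM and those of mast cells and basophils 3248 to 13805 CPM. The 6 libraries of Lin-Kit+ experiment 2 stood apart in the introns that had at least 20 exon-intron reads in the library. Of these introns 24.6% to 31.0% had reads at 1 exon-intron boundary only, against 7.86% to 12.8% in experiment 1.

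The ends of 56 member introns in 29 genes could be read from GENCODE M21 transcripts in which another transcript covers the intron. All 56 began with GT and ended with AG, and 2 of them were U12-type by sequence, intron 2 of Lsm5 and intron 1 of Lsm8 (introns are numbered along the reference transcript). The other listed member introns were not classed by sequence here. The 2 are printed because U12-type introns are the class that Zrsr2 acts on. The first 8 bases of the Lsm5 intron matched the U12 start GTATCCTT with 0 mismatches and those of the Lsm8 intron with 1 mismatch, and the last 40 bases of each held the branch point motif TTCCTTAA with 1 mismatch. The Lsm5 intron is on the minus strand of chr6:56703034-56703313 (mm10, 280 bases) and the Lsm8 intron on the plus strand of chr6:18848764-18849625 (862 bases). For comparison the ends of 2 U2-type introns with high retention values are given, intron 7 of Snrnp70 (chr7:45380819-45383803, minus strand) and intron 10 of Dhx15 (chr5:52157578-52160229, minus strand). Exons of other transcripts, protein-coding ones among them, overlap the Snrnp70 intron, so its value can include reads of those exons. Capitals mark the first 8 and the last 3 bases, and all sequences run 5′ to 3′.
Lsm5 intron 2, whole: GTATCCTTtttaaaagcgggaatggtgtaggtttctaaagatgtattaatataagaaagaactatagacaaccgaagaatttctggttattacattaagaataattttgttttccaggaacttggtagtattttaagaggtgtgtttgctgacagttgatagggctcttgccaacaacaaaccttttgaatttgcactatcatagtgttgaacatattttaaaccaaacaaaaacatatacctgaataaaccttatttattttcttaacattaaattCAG
Lsm8 intron 1, first 20 bases: GTATCCTCcggcgggctgct
Lsm8 intron 1, last 40 bases: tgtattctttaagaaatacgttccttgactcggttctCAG
Snrnp70 intron 7, first 20 bases: GTGAGTACtgtgcctctgcc
Snrnp70 intron 7, last 40 bases: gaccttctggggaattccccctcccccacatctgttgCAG
Dhx15 intron 10, first 20 bases: GTAATAGAgggagagggacc
Dhx15 intron 10, last 40 bases: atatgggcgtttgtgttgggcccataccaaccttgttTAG

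The Sm genes had the highest levels of all roles. Because spliced counts are summed over introns and a gene with many introns collects more of them, levels of different genes were compared only by the CPM of the median intron of the gene, here over the 9 WT progenitor libraries. The median over the 6 measured Sm genes was 76.2, with Snrpg highest at 87.5 (range 79.4 to 112) and Snrpb, which encodes the Sm protein B, lowest at 59.8 (range 43.1 to 94.3). The ranges of these 2 genes overlapped over the 9 libraries, and those of Snrpd2 (79.1), Snrpd3 (78.5), Snrpd1 (73.9) and Snrpe (72.4) lay among them. In U1 the median over 4 genes was 18.1. Snrnp70, which encodes the protein that grips the first stem-loop of U1 RNA, stood at 52.5 (range 46.1 to 57.6), Snrpa at 20.8, Snrpc at 15.3 and Prpf39, an accessory U1 factor, at 3.98 (range 3.03 to 5.41). Among the 7 U2 genes the median was 20.6, and the level ran from 29.04 (range 25.2 to 32.95) for Sf3b2 to 16.5 (range 10.3 to 28.2) for Sf3b4, both of the SF3b complex that holds the branch point. Sf3b3 (25.1), Sf3a2 (23.1), Snrpa1 (20.6), Snrpb2 (18.2) and Sf3a3 (17.4) lay between them.

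The 7 LSm genes had a median of 24.3 CPM on this scale and a narrow spread, from 30.6 (range 25.5 to 48.6) for Lsm4 to 17.6 (range 14.7 to 20.99) for Lsm5. The U4/U6 genes were lower, with 14.97 (range 12.5 to 17.99) for Prpf31, 6.64 for Prpf3 and 5.57 (range 4.97 to 6.47) for Prpf4. In the U5 group Snrnp40 was highest at 20.6 (range 18.1 to 25.4) and Prpf6 lowest at 6.31 (range 5.83 to 7.90), with Eftud2, the GTPase of U5, at 15.4 and Snrnp200, the helicase that unwinds U4 from U6, at 9.02. Ddx23 (10.9) and Txnl4a (10.2) were close to each other. In the tri-snRNP and B complex group the level ran from 13.5 (range 11.4 to 14.2) for Prpf38b to 9.72 (range 9.37 to 10.8) for Prpf38a, and Prpf4b, Sart1, Usp39 and Snrnp27 stood at 13.1, 12.2, 10.5 and 10.2. Prpf19, the ubiquitin ligase of the Prp19 complex, had 44.8 (range 42.1 to 61.8), above its partners Bcas2 (19.8), Plrg1 (9.74), Cdc5l (9.46), Xab2 (9.23), Aqr (7.21), Crnkl1 (6.04) and Cwc22 (4.92 (range 3.66 to 5.23)). Among the late factors Dhx15, the helicase that takes spent spliceosomes apart, stood at 30.3 (range 25.3 to 35.2), while Dhx16 (7.82), Dhx38 (5.28), Prpf18 (4.41) and Dhx8 (4.14 (range 3.46 to 4.65)) were all lower.

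Most members were higher in WT MEP than in WT CMP. By edgeR's quasi-likelihood test with Benjamini-Hochberg adjustment over all genes, 41 of 52 rose and 1 fell, while 46.2% of all 17279 genes were called, 20.9% higher and 25.3% lower. The median log2 change over the members was 0.33 against -0.05 over all genes, and 49 of the 52 changes were positive. All 6 Sm genes, all 7 U2 genes, all 3 U4/U6 genes and all 6 U5 genes rose, as did 3 of 4 U1 genes, 5 of 7 LSm genes and 7 of 8 genes of the Prp19 group, against 2 of 6 in the tri-snRNP and B complex group and 2 of 5 among the late factors. The members together took 1.07% to 1.16% of spliced counts in MEP libraries of both genotypes, 0.910% to 0.953% in CMP and 0.865% to 0.905% in GMP. In bulk samples a gene that is lower in each cell and a smaller number of cells that carry it cannot be told apart.

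Values per library are CPM, with 3 libraries a group here, and log2 changes, given with a standard error (SE), also use TMM scaling factors. For genes the SE is the size of the log2 change divided by the square root of the F value of the edgeR test. It therefore rests on the spread shared by all libraries of the fit and not on the compared groups alone. Sf3b4 changed most, from 68.8, 62.6 and 64.8 CPM in the WT CMP libraries to 99.98, 124 and 151 in WT MEP (log2 1.08 ± 0.18, edgeR adjusted p = 0.000103). Every MEP library lay above every CMP library, though the MEP libraries themselves spread widely. Lsm4 went from 117, 107 and 113 CPM to 165, 177 and 199.9 (log2 0.82 ± 0.12, edgeR adjusted p = 2.9e-05). Lsm7, a neighbour of Lsm4 in the same ring of proteins, went from 45.2, 40.7 and 50.3 CPM to 68.01, 75.1 and 72.05 (log2 0.80 ± 0.09, edgeR adjusted p = 2.32e-06). In both LSm genes the libraries of the 2 cell types stood clear of each other. Snrpb went from 346, 333 and 342 CPM to 496, 518 and 594 (log2 0.80 ± 0.15, edgeR adjusted p = 0.000245). Lsm2 went from 115, 118 and 137 CPM to 160.0, 170.5 and 209 (log2 0.68 ± 0.14, edgeR adjusted p = 0.000602). Neither gene had overlapping groups.

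Lsm3, another protein of the ring on U6, was the single member that fell, with 93.6, 94.7 and 87.4 CPM in WT CMP and 61.6, 69.4 and 79.4 in WT MEP (log2 -0.25 ± 0.09, edgeR adjusted p = 0.0338). All 3 MEP libraries were below all 3 CMP libraries, but the call was lost under 7 of the alternative settings, with log2 values of -0.24 to -0.15. Among them were leaving out replicate 1 or 2 of WT CMP, or replicate 1 or 2 of WT MEP. Of the other LSm genes, Lsm5 (0.30) and Lsm8 (0.22) rose less than Lsm2, Lsm4 and Lsm7, and Lsm6 (0.04) was not called. The remaining Sm genes rose by log2 0.30 (Snrpe) to 0.52 (Snrpg), with Snrpd3 at 0.48, Snrpd2 at 0.32 and Snrpd1 at 0.31. In U1, Snrpa (0.62) and Snrpc (0.61) rose more than Snrnp70 (0.23), and Prpf39 (-0.17) was not called. In U2, Sf3a2 (0.62) and Snrpa1 (0.54) came next to Sf3b4, and Sf3b2 (0.14) changed least of the 7. The differences in size between genes were not themselves tested.

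Among the U5 genes Eftud2 rose by log2 0.67 and Snrnp200 by 0.52, and Txnl4a, Snrnp40, Prpf6 and Ddx23 by 0.52, 0.40, 0.37 and 0.36. The U4/U6 genes Prpf3, Prpf31 and Prpf4 rose by 0.47, 0.39 and 0.29. Of the tri-snRNP and B complex genes, Usp39 (0.62) and Sart1 (0.35), both needed to bring the tri-snRNP into the spliceosome, rose, whereas Prpf4b (0.23), Snrnp27 (0.17), Prpf38a (0.14) and Prpf38b (0.02) were not called. In the Prp19 group Bcas2 (0.63), Prpf19 (0.54) and Aqr (0.47) rose most, Plrg1, Xab2, Cwc22 and Crnkl1 rose by 0.32, 0.26, 0.26 and 0.21, and Cdc5l (-0.04) was not called. Of the late factors Dhx16 (0.59) and Dhx8 (0.22) rose, and Dhx15 (0.15), Dhx38 (0.15) and Prpf18 (0.09) were not called. With library totals in place of TMM factors the median over all genes moved to -0.19 and that over the members to 0.19, and 29 members rose and 2 fell, with Cdc5l as the added gene. The 12 calls lost were Crnkl1, Cwc22, Dhx8, Lsm5, Lsm8, Prpf4, Sf3b2, Snrnp70, Snrpb2, Snrpd1, Snrpd2 and Xab2, and none of the 42 called members took the opposite sign.

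Other genes of the major spliceosome, from a list of 47 that are not members, were called in part: of 45 tested, 18 rose and 3 fell in WT MEP against WT CMP, with a median log2 change of 0.19. Of the 11 minor spliceosome proteins, 1 rose and 2 fell (median -0.14). Whether the lists differ was not tested. Among 15 proliferation genes, 8 rose and 0 fell (median 0.22), and their summed level was 6313 to 7067 CPM in WT MEP, 6558 to 6752 in WT CMP and 5697 to 5953 in WT GMP. The part of proliferation in the change of the members was not tested.

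**Figure D1:**
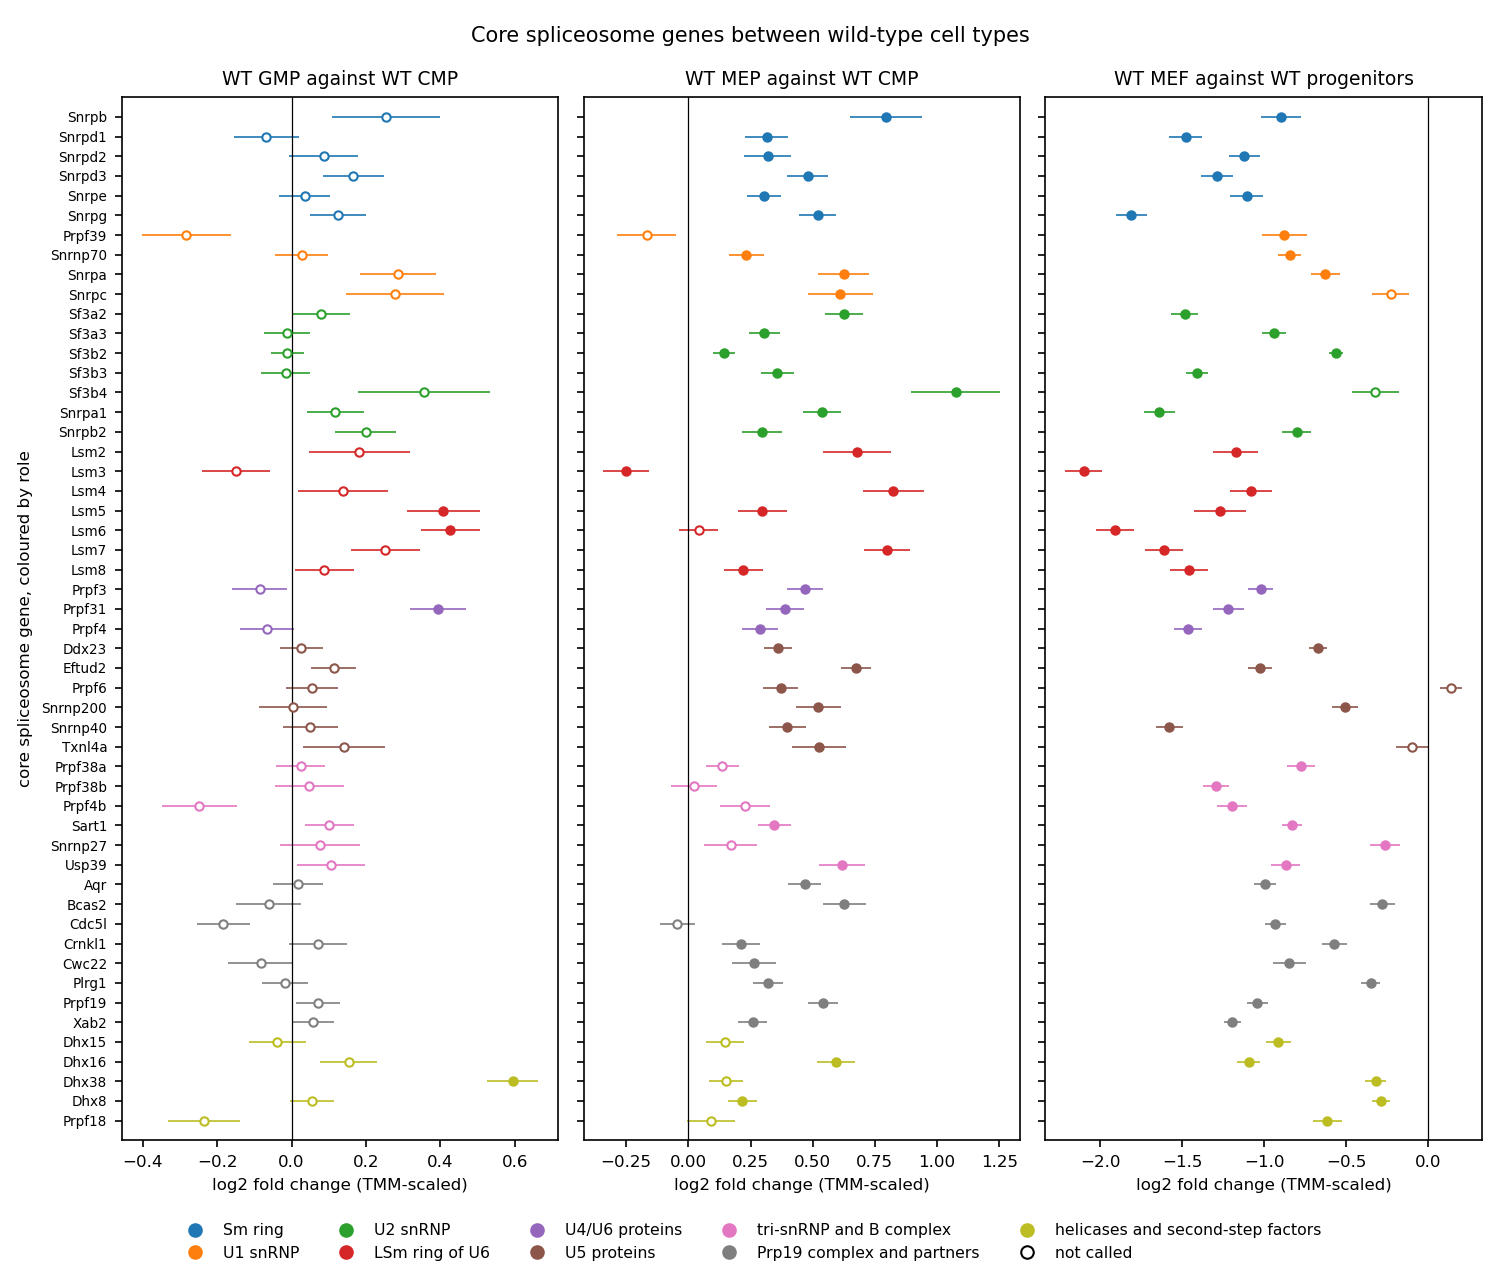
Log2 change of each of the 52 members between WT cell types, in 3 panels (GMP against CMP, MEP against CMP, MEF against progenitors), grouped by role. Bars are 1 standard error, and open points are genes that were not called at adjusted p under 0.05. Points lie close to 0 in the GMP panel, where 4 members rose, and mostly right of 0 in the MEP panel, where 41 rose. In the MEF panel, described further below, points lie mostly left of 0 and 48 members fell.

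Most members were higher in WT MEP than in WT GMP as well, a comparison that uses the same MEP libraries. Of the 52 members 37 rose and 2 fell, against 45.4% of all genes called, 20.8% higher and 24.6% lower. Sf3b4 again changed most, from 81.6, 84 and 62.4 CPM in WT GMP (log2 0.72 ± 0.18, edgeR adjusted p = 0.00312), with all GMP libraries below the MEP values given above. Bcas2, a core protein of the Prp19 complex, went from 94.8, 89.9 and 103 CPM to 143, 149 and 171 (log2 0.69 ± 0.09, edgeR adjusted p = 5.55e-06). Lsm4 stood at 119, 121 and 98.2 CPM in WT GMP and changed by log2 0.69 ± 0.12 (edgeR adjusted p = 0.000167). In both genes no GMP library reached the lowest MEP library. Eftud2 went from 373, 352 and 366 CPM to 503, 539.6 and 563 (log2 0.56 ± 0.06, edgeR adjusted p = 8.8e-07). Prpf3 went from 82.8, 79.5 and 92.5 CPM to 115, 132 and 126 (log2 0.56 ± 0.07, edgeR adjusted p = 8.98e-06).

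The 2 members that fell in MEP against GMP were Dhx38 and Lsm6. Dhx38 encodes the helicase that acts before the second step of splicing, and stood at 139.6, 128 and 117 CPM in WT CMP, 174, 190.0 and 165 in WT GMP and 135, 126 and 128 in WT MEP (MEP against GMP log2 -0.44 ± 0.07, edgeR adjusted p = 5.16e-05). Lsm6 stood at 67.3, 69.5 and 68.6 CPM in WT CMP, 86.6, 81.9 and 82.8 in WT GMP and 61.2, 65.6 and 65.1 in WT MEP (MEP against GMP log2 -0.39 ± 0.08, edgeR adjusted p = 0.000768). In both genes the GMP libraries were the highest of the 3 cell types and did not overlap the others. The 13 members that were not called were Snrpd2, Snrpb2, Prpf39, Lsm3, Lsm5, Lsm8, Prpf31, Snrnp27, Prpf38a, Prpf38b, Crnkl1, Cdc5l and Dhx15, with log2 changes of -0.11 (Lsm5) to 0.23 (Snrpd2). With the mouse as a block Dhx15 was also called (log2 0.18, edgeR adjusted p = 0.0261) and Snrpc was not (edgeR adjusted p = 0.0714). Of the 45 other major spliceosome genes 15 rose and 2 fell, and of the 11 minor ones 2 rose and 3 fell.

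Few members differed between WT GMP and WT CMP, the groups used in the comparisons above. Of the 52 members 4 rose and 0 fell, against 24.6% of all genes called (12.4% higher, 12.3% lower), and the median change was log2 0.06 against 0.00 over all genes. Dhx38 changed by log2 0.59 ± 0.07 (edgeR adjusted p = 8.74e-06) and Lsm6 by 0.43 ± 0.08 (edgeR adjusted p = 0.000867), with the library values above. Prpf31, a U4/U6 protein, went from 143, 143 and 148 CPM in WT CMP to 181, 170.0 and 168 in WT GMP (log2 0.39 ± 0.08, edgeR adjusted p = 0.00102). Lsm5 went from 71.1, 81.1 and 71.5 CPM to 87.7, 85.1 and 97.5 (log2 0.41 ± 0.10, edgeR adjusted p = 0.00569). The groups did not overlap in any of the 4 genes. The split depended on the scaling: with library totals, which moved the median over all genes to -0.13 and that over the members to -0.07, 3 members rose (Lsm5 was lost) and 7 fell (Cdc5l, Lsm3, Prpf18, Prpf3, Prpf39, Prpf4b and Sf3b2). Without replicate 3 of WT GMP, 12 were called, 8 higher and 4 lower, and with the mouse as a block Prpf18 fell as well (log2 -0.24, edgeR adjusted p = 0.0390). Snrpb had 402, 412 and 291 CPM in GMP replicates 1 to 3, so that replicate 3 alone lay below all CMP libraries. The other 48 members changed by log2 -0.28 (Prpf39) to 0.36 (Sf3b4).

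**Figure D2:**
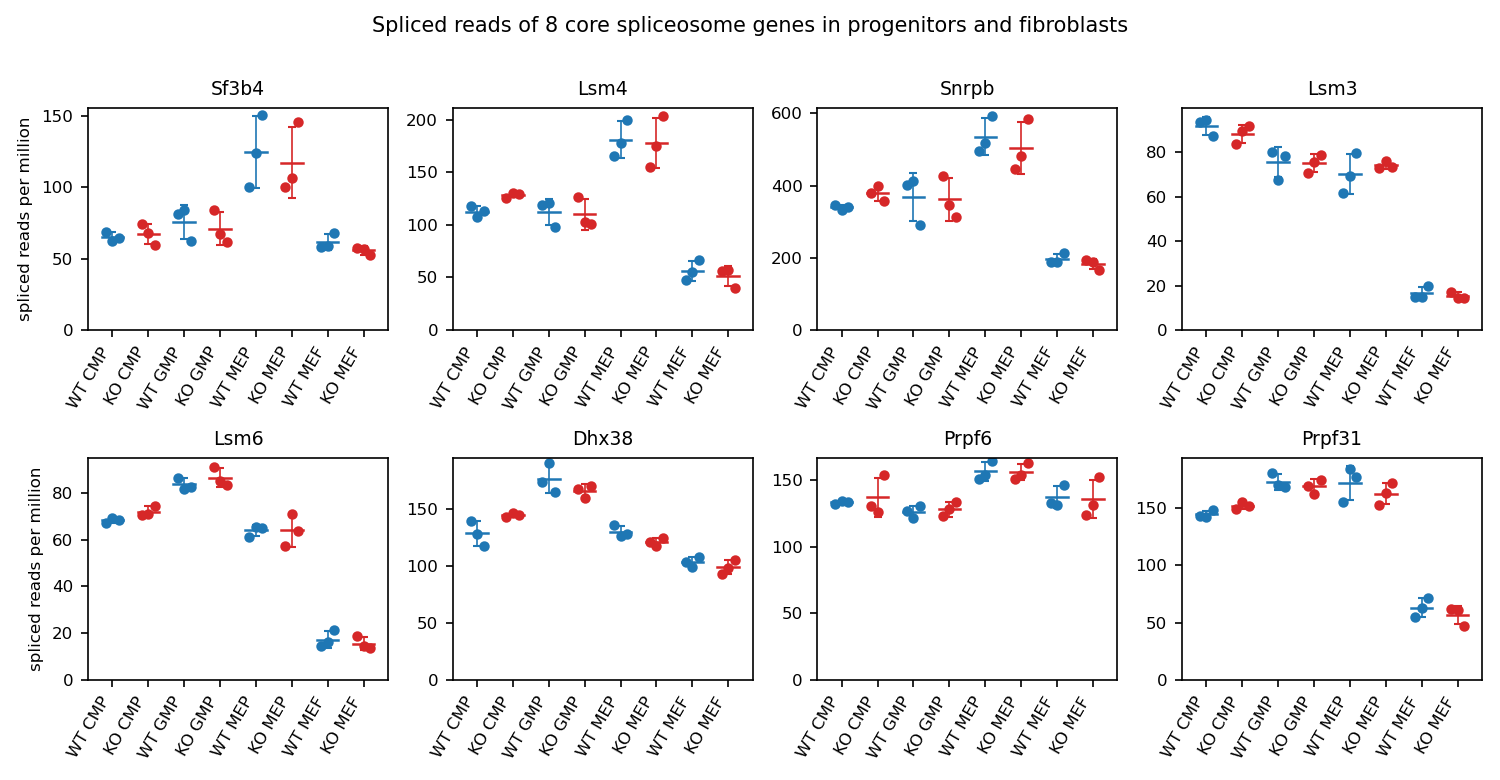
Spliced counts in CPM in each library for Sf3b4, Lsm4, Snrpb, Lsm3, Lsm6, Dhx38, Prpf6 and Prpf31 in CMP, GMP, MEP and MEF, with WT in blue and KO in red. Each point is 1 library, the line is the mean and the bar the SD of 3 libraries, and Dhx38 and Lsm6 peak in GMP while Sf3b4, Lsm4 and Snrpb peak in MEP.

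Fibroblasts had less spliced RNA of nearly all members. In WT MEF against the 9 WT progenitor libraries 48 of 52 members fell and 0 rose, with 68.0% of all 19241 genes called, 29.1% lower and 38.9% higher. The median change was log2 -0.97 against 0.18 over all genes, and the members took 0.430% to 0.499% of spliced counts in MEF libraries. Lsm3 changed most, from 61.6 to 94.7 CPM over the progenitors to 19.9, 15.1 and 14.7 in WT MEF (log2 -2.10 ± 0.11, edgeR adjusted p = 2.62e-12). Lsm6 stood at 21.2, 14.3 and 16.1 CPM in WT MEF against 61.2 to 86.6 in progenitors (log2 -1.91 ± 0.12, edgeR adjusted p = 1.7e-11). Snrpg stood at 81.02, 63.3 and 63.2 CPM against 242 to 334 (log2 -1.81 ± 0.09, edgeR adjusted p = 1.73e-12). In these 3 genes every MEF library was far below the lowest progenitor library. Snrpa1, a U2 protein that pairs with Snrpb2, stood at 60.2, 48.6 and 48.7 CPM against 158 to 237 (log2 -1.64 ± 0.10, edgeR adjusted p = 1.01e-11). Lsm7 stood at 20.5, 14.95 and 12.6 CPM against 40.7 to 75.1 (log2 -1.61 ± 0.12, edgeR adjusted p = 2.17e-10).

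By role, all 6 Sm genes fell, by log2 -1.81 to -0.90 (Snrpb), and all 7 LSm genes, by -2.10 to -1.08 (Lsm4). In U1 Prpf39 (-0.88), Snrnp70 (-0.84) and Snrpa (-0.63) fell and Snrpc (-0.23) was not called. In U2 Sf3b4 (-0.32) was not called while the other 6 fell, by -1.64 to -0.56 (Sf3b2). The U4/U6 genes fell by -1.47 (Prpf4), -1.22 (Prpf31) and -1.02 (Prpf3). In U5, Snrnp40 (-1.58), Eftud2 (-1.03), Ddx23 (-0.67) and Snrnp200 (-0.51) fell, and Txnl4a (-0.10) and Prpf6 (0.14) were not called. Prpf6 stood at 146, 133 and 131 CPM in WT MEF, within the 121 to 164 of the progenitors, and was the only one of the 52 with a positive value. All 6 genes of the tri-snRNP and B complex group fell, by -1.29 (Prpf38b) to -0.26 (Snrnp27), as did all 8 of the Prp19 group, by -1.19 (Xab2) to -0.28 (Bcas2), and all 5 late factors, by -1.09 (Dhx16) to -0.29 (Dhx8).

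Under DESeq2, which moved the median over all genes to 0.33 and that over the members to -0.82, 46 members fell and 1 rose, and with library totals 51 fell, among them Sf3b4, Snrpc and Txnl4a. Of the 45 other major spliceosome genes 39 fell and 3 rose in MEF (median -0.78), and of the 11 minor spliceosome proteins 9 fell and 1 rose (median -0.67). All 15 proliferation genes fell too (median -1.79), from a sum of 5697 to 7067 CPM in WT progenitors to 1218 to 1699 in WT MEF, and all 8 fibroblast markers rose, to a sum of 66679 to 78773 CPM. Macrophage markers were also present in the MEF libraries, with all 8 called higher and a sum of 296 to 2707 CPM. The part of proliferation and of macrophage RNA in the lower level of the members was not tested. Fibroblasts and progenitors also differ in tissue, age and culture, which cannot be told apart here.

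Since many members moved together between cell types, their promoters were searched for short motifs. RefSeq promoter sequences (GRCm38.p6, 250 bases before to 50 after the start) were matched for 42 of the 53 genes. The ETS motif CCGGAAG, searched on both strands, was present in 20 of the 42 (47.6%), against 9.93% of 27025 genes with a promoter of the same length. A gene with several promoters counted if any of them held the motif. The 27025 genes were not limited to those expressed in these cells. The E-box CACGTG was present in 4 (9.52% against 8.09%), the 10-base NRF1 motif in 1 (2.38% against 1.07%), the YY1 motif AAGATGGCG in 2 (4.76% against 1.64%) and TATAAA in 2 (4.76% against 15.7%). No searched motif contains another, and a match describes the letters of this window only. The promoters of 3 small proteins of the U2 and Sm groups are printed, Snrpe (chr1:133610231-133610530, minus strand) and Snrpb2 (chr2:143062819-143063118, plus strand), which hold 2 ETS matches each (in Snrpe they overlap, 1 on each strand), and Snrpg (chr6:86371290-86371589, plus strand), which holds 1. All 3 genes rose in MEP against CMP and fell in MEF, as most members did. Whether the motif goes with these changes was not tested. Capitals mark the ETS matches on either strand.
Snrpe promoter: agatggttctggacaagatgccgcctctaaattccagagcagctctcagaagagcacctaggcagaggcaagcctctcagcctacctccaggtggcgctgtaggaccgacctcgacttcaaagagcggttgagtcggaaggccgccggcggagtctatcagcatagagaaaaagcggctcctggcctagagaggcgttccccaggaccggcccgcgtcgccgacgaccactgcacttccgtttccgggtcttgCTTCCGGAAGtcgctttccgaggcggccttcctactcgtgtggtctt
Snrpb2 promoter: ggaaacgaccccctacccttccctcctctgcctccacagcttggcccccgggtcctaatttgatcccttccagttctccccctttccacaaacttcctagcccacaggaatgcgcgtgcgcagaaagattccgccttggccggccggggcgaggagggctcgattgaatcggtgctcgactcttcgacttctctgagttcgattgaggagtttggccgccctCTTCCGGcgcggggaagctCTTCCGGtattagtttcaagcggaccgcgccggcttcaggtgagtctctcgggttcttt
Snrpg promoter: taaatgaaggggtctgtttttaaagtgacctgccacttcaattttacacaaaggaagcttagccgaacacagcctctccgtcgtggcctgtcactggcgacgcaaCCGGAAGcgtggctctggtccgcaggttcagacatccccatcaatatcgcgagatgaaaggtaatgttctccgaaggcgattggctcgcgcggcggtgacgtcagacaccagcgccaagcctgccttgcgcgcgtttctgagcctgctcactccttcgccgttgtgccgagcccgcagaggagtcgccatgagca
The other 17 members with the motif were Aqr, Dhx16, Dhx8, Lsm5, Prpf19, Prpf3, Prpf4b, Prpf6, Sart1, Sf3a2, Sf3a3, Sf3b2, Sf3b3, Snrnp200, Snrnp27, Snrpc and Xab2. They include Prpf4b and Snrnp27, which were not called in MEP against CMP, as well as Prpf6 and Snrpc, which were not called in MEF.

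Loss of Zrsr2 changed no member past the threshold in any cell type. In KO against WT 0 of 52 members were called in CMP (0.0231% of all genes), GMP (0.0174%), MEP (0.0463%) and MEF (0.0%), and in Lin-Kit+ cells carrying the control hairpin (0.0%) or the Zrsr1 hairpins (0.0%). DESeq2 and limma-voom called 0 members too, and members with an unadjusted edgeR p under 0.05 numbered 3 in CMP and 0 in each of the other 5 comparisons. The members ranged from log2 -0.24 (Prpf39) to 0.18 (Lsm4) in CMP, from -0.10 to 0.13 in GMP, from -0.15 to 0.07 in MEP and from -0.16 to 0.09 in MEF. In Lin-Kit+ cells the range was -0.12 to 0.30 with the control hairpin and -0.22 to 0.21 with the Zrsr1 hairpins.

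The smallest p-values in CMP belonged to Crnkl1, Dhx38, Lsm5 and Dhx15. Crnkl1, a scaffold protein of the active spliceosome, had 72.8, 84.4 and 83.5 CPM in WT CMP and 69.6, 71.6 and 70.9 in KO CMP (log2 -0.19 ± 0.08, edgeR adjusted p = 0.822). Dhx38 had 139.6, 128 and 117 CPM against 143, 146 and 145 (log2 0.16 ± 0.07, edgeR adjusted p = 0.829). Lsm5, host of the U12-type intron printed above, had 71.1, 81.1 and 71.5 CPM against 61.3, 70.1 and 62.4 (log2 -0.22 ± 0.10, edgeR adjusted p = 0.834). Dhx15 had 347, 377 and 392 CPM against 332, 342 and 332 (log2 -0.16 ± 0.08, edgeR adjusted p = 0.834). None of the 4 genes was called. They were picked for small p-values, and in none of them did the WT and KO libraries overlap. Over all genes at 1 CPM or more, 13.6% had no overlap in CMP. In GMP the smallest p-values were those of Cdc5l (log2 0.12 ± 0.07), Cwc22 (0.13 ± 0.09), Dhx38 (-0.09 ± 0.07) and Snrnp70 (-0.09 ± 0.07). In MEP they were Sf3b2 (-0.09 ± 0.04), Dhx38 (-0.13 ± 0.07), Prpf31 (-0.11 ± 0.08) and Dhx8 (-0.08 ± 0.06).

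Dhx38 had a positive value in CMP and negative values in GMP and MEP. The difference between the KO effects was log2 -0.29 ± 0.10 for MEP minus CMP (edgeR adjusted p = 0.784) and -0.25 ± 0.10 for GMP minus CMP (edgeR adjusted p = 0.955), so it was not called. No member was called in any test of a difference between KO effects (edgeR, DESeq2 and limma-voom). Over all genes edgeR called 0.0% for GMP minus CMP, 0.0116% for MEP minus CMP and 0.0116% for MEP minus GMP. In the same order 2, 2 and 0 members had an unadjusted edgeR p under 0.05. The share of all genes under that unadjusted threshold is not given here. In fibroblasts the smallest p-values were those of Sf3b4 (log2 -0.13 ± 0.09), Sf3a2 (-0.16 ± 0.12), Snrnp27 (-0.10 ± 0.10) and Prpf3 (-0.12 ± 0.12). In Lin-Kit+ cells carrying the control hairpin they were those of Lsm3 (0.28 ± 0.22), Prpf39 (0.30 ± 0.26), Lsm7 (0.30 ± 0.27) and Sf3a2 (0.14 ± 0.18). With the Zrsr1 hairpins they were those of Txnl4a (0.21 ± 0.17), Lsm7 (-0.22 ± 0.19), Snrpg (-0.16 ± 0.15) and Xab2 (-0.12 ± 0.12).

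Separation of the WT and KO libraries was most frequent in CMP. WT and KO CMP libraries did not overlap in 18 of the 52 members, against 13.6% of all genes at 1 CPM or more. Of these, 10 were higher in KO (Dhx16, Dhx38, Lsm4, Lsm6, Prpf31, Sart1, Sf3b2, Snrpa, Snrpb and Xab2) and 8 lower (Bcas2, Crnkl1, Dhx15, Lsm5, Plrg1, Prpf18, Prpf39 and Txnl4a). Depth did not overlap either, with 62699289 to 71576589 spliced counts in the WT CMP libraries and 44083233 to 50515089 in the KO CMP libraries. Mature neutrophil markers were higher in KO CMP for 10 of 10 genes, at a sum of 73.2 to 180.3 CPM against 44.3 to 84.7, and 0 of them were called. The part of depth and of neutrophil RNA in this count was not tested. The same count was 1 of 52 in GMP (Prpf38a, higher) against 6.48% of all genes, 2 in MEP (Dhx38 and Sf3b2, lower) against 5.84%, and 1 in MEF (Sf3b4, lower) against 4.81%.

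Most members had lower levels with Zrsr1 hairpins than with the control hairpin, but few were called. Without the experiment as a block 0 of 52 members were called in WT cells or in KO cells, where 0.0% of all genes were called, and DESeq2 called 0 members while calling 380 and 368 genes. Members with an unadjusted edgeR p under 0.05 numbered 0 and 3. The median change was log2 -0.14 in WT cells and -0.20 in KO cells against -0.03 and -0.006 over all genes, and 10 and 6 members had positive values. With the experiment, which the labels name, as a block, 2 members fell in WT cells (8.65% of all genes called, 4.03% lower) and 7 fell in KO cells (8.91% called, 4.33% lower). No member was called by edgeR or DESeq2 for the difference between the hairpin effects in KO and WT cells, and 0 had an unadjusted edgeR p under 0.05 (0.0% of all genes called).

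Dhx15 was the one member called in both genotypes. In WT cells it stood at 271 and 169.9 CPM with the control hairpin in experiments 1 and 2, 156 and 102 with sh1 and 209 and 132 with sh10 (log2 -0.46 ± 0.09 with the block, edgeR adjusted p = 0.0181). In KO cells it stood at 256 and 167 CPM with the control, 146 and 97.7 with sh1 and 223 and 103 with sh10 (log2 -0.53 ± 0.09, edgeR adjusted p = 0.00994). Within each experiment both hairpins were below the control, and sh1 was below sh10. Prpf3 was called in WT cells, with 83.7 and 59.99 CPM in the control, 65.6 and 41.4 with sh1 and 58.2 and 38.5 with sh10 (log2 -0.40 ± 0.11, edgeR adjusted p = 0.0481). Experiment 1 lay above experiment 2 in every one of the Prpf3 groups.

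The other 6 members called in KO cells with the block came from several roles. Sf3a2 of the U2 snRNP had 126 and 139 CPM in the KO control, 95.1 and 86.3 with sh1 and 102 and 81.6 with sh10 (log2 -0.46 ± 0.11, edgeR adjusted p = 0.0267). Lsm7 had 24.7 and 24.2 CPM in the KO control, 20.5 and 15.7 with sh1 and 16.6 and 9.13 with sh10 (log2 -0.64 ± 0.16, edgeR adjusted p = 0.0376). In both genes each hairpin was below the control of its own experiment. Snrpa1 (-0.55 ± 0.14, adjusted p = 0.0423), Prpf31 (-0.44 ± 0.10, 0.0213), Prpf38a (-0.40 ± 0.10, 0.0340) and Sf3b3 (-0.38 ± 0.08, 0.0232) fell as well by edgeR with the block. Without the block the smallest p-values in WT cells were those of Aqr (log2 -0.35 ± 0.17, edgeR adjusted p = 0.741), Lsm2 (-0.35 ± 0.17), Sf3a2 (-0.28 ± 0.15) and Cdc5l (-0.23 ± 0.13), and in KO cells those of Sf3a2 (-0.46 ± 0.15, edgeR adjusted p = 0.557), Lsm7 (-0.62 ± 0.23), Lsm3 (-0.51 ± 0.19) and Prpf38a (-0.41 ± 0.18).

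Both hairpins were below the control in both experiments for 37 of 52 members in WT cells, against 28.0% of all genes at 1 CPM or more, and for 37 of 52 in KO cells, against 27.3%. The opposite held for 1 member in WT cells (Prpf39), against 13.8% of all genes, and for 0 in KO cells, against 15.7%. Each control library is shared by both hairpins, so the hairpins are not separate evidence. The 45 other major spliceosome genes had medians of -0.11 and -0.18 and the 11 minor spliceosome proteins of 0.03 and -0.04. All 15 proliferation genes were lower with the hairpins in both genotypes (medians -0.52 and -0.64). Their sum was 3235 to 5788 CPM in the WT control, 1745 to 3936 with sh1 and 2218 to 4109 with sh10, and 2821 to 5413, 1709.6 to 3355 and 1555 to 3917 in KO cells. Macrophage markers were higher for 8 of 8 genes (medians 1.43 and 2.12), with sums of 1006 to 1880.2 CPM in the WT control, 1597 to 3707 with sh1 and 1618 to 2468 with sh10. Mature neutrophil markers were higher for 9 of 10 (medians 1.05 and 0.76). The part of proliferation and of these cell types in the lower level of the members was not tested.

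**Figure D3:**
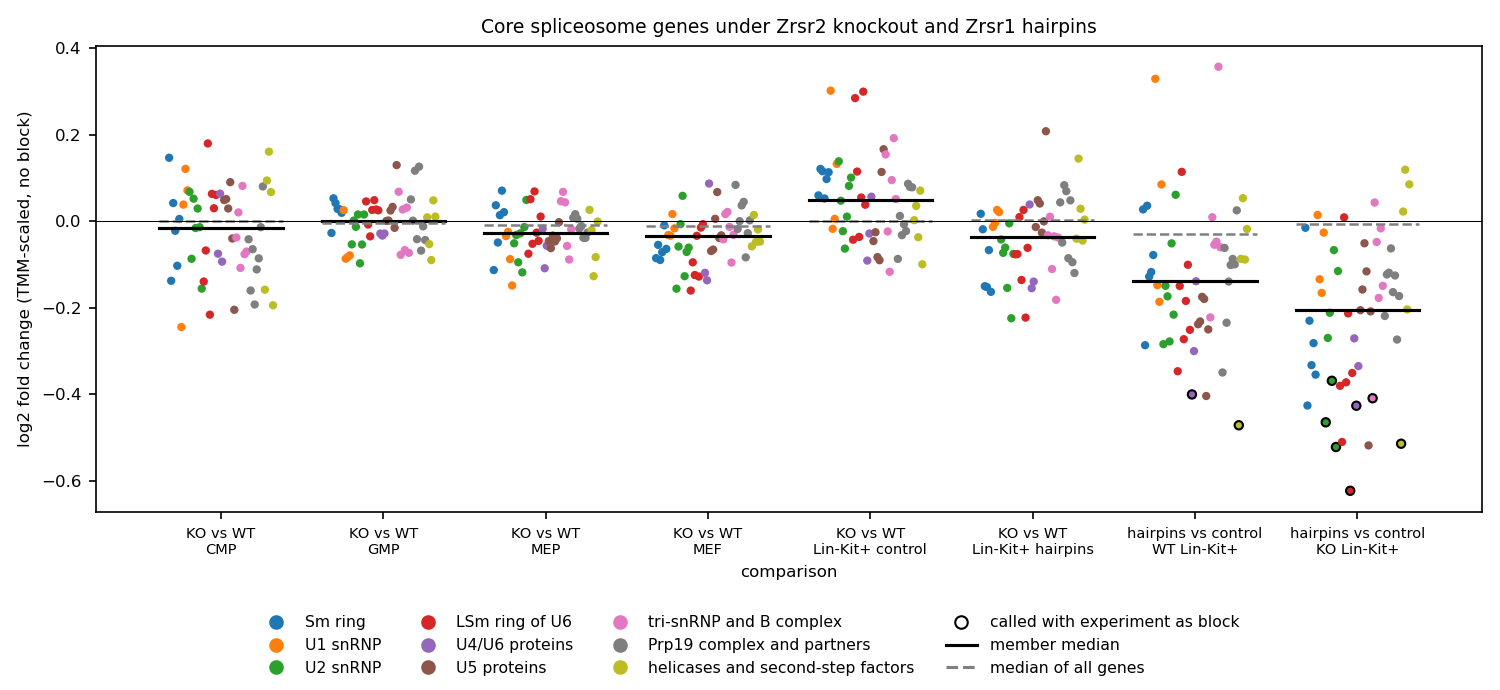
Log2 change of each of the 52 members in 8 comparisons, 6 of KO against WT and 2 of the Zrsr1 hairpins against the control hairpin, from TMM-scaled fits without a block. The black line is the median of the members, the dashed grey line the median of all genes, and outlined points are members called with the experiment as a block, all of them below 0 in the 2 hairpin comparisons.

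Introns of the members were rarely retained. Retention, the percent deposited for each intron, is the share of boundary reads in the sum of boundary reads and 2 times spliced reads, where boundary reads are those across an exon-intron junction. Over WT progenitors the median of the 591 introns was 1.06%, against 1.52% over 112363 introns with a mean of 20 reads or more, and 396 of the 591 (67.0%) were under 2%. Only 16 introns in 12 genes reached 10%, or 2.71% of member introns against 9.67% of all. The 591 are introns of reference transcripts only, while the 112363 were not limited to such introns. Both comparisons with all introns are therefore of unlike sets. Where an exon of another transcript lies inside an intron or reaches into it, reads of that exon can count as exon-intron reads. The 2 highest values were of this kind, intron 3 of Prpf39, at 47.5%, and intron 8 of the same gene, at 22.6%.

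Among introns that overlap no exon outside retained-intron transcripts, intron 12 of Sart1 was highest (chr19:5382360-5382714, minus strand, 355 bases), with a mean of 20.4% ± 4.97 (SD, n = 9) over WT progenitors and 15.1% at its smaller end. Per library it stood at 20.96, 25.6 and 28.5% in WT CMP, 18.8, 18.6 and 23.7% in WT GMP, 13.8, 20.1 and 13.7% in WT MEP and 11.2, 10.9 and 14.9% in WT MEF. The MEP libraries were all below the CMP libraries. Intron 6 of Ddx23, the U5 helicase that displaces U1, followed the same scale (chr15:98651599-98651917, minus strand), with 20.4, 15.02 and 14.4% in WT CMP, 12.4, 12.9 and 21.7% in WT GMP, 17.8, 14.5 and 8.17% in WT MEP and 4, 3.55 and 4.05% in WT MEF. Here the progenitor types overlapped each other and all 3 MEF libraries were lower. Neighbouring intron 5 of Ddx23 had a mean of 14.2% ± 2.86. Intron 13 of Dhx16 had 19.9% ± 5.31, but only 5.38% at its smaller end, and intron 17 of the same helicase gene 12.2% ± 2.31.

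Intron 10 of Xab2 had a mean of 16.9% ± 3.62, introns 14 and 13 of Prpf3 13.5% ± 3.93 and 11.2% ± 4.26, and intron 10 of Dhx15 13.5% ± 3.68 (SD, n = 9 throughout). The pairs of neighbours in Ddx23, Prpf3 and Snrpa1, where introns 5 and 6 had 9.17% ± 1.87 and 9.09% ± 2.19, had like values. The list of 15 was completed by intron 2 of Dhx38 (9.04% ± 2.73, with 1.42% at its smaller end), intron 6 of Sf3a2 (8.14% ± 1.23), intron 11 of Sart1 (7.95% ± 2.82) and intron 13 of Sf3b2 (7.74% ± 1.69). In Lin-Kit+ experiment 2 the median over member introns was 0% to 0.212%, against 0.626% to 0.909% in experiment 1, so retention in these cells was read only within an experiment.

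Between WT MEP and WT CMP 3 of 426 tested member introns were called, all lower in MEP, against 0.664% of all 60675 introns (0.427% lower, 0.237% higher). The number called is close to the general share for either direction, so it does not set the members apart. Changes of introns are log2 changes of the ratio of exon-intron to spliced reads. Intron 7 of Snrnp70 (chr7:45380819-45383803, 2985 bases) overlaps exons of transcripts annotated as protein-coding, as targets of nonsense-mediated decay or as retaining an intron. Its value can therefore include reads of such exons. It had 28.8, 28.7 and 21.6% in WT CMP, 19.6, 24.9 and 20.8% in WT GMP and 17.5, 14.9 and 11.8% in WT MEP (log2 -1.05 ± 0.29, edgeR adjusted p = 0.00187). Every MEP library was below every CMP library, and over WT progenitors the mean was 20.9% ± 5.82 with 8.55% at the smaller end. Intron 10 of Dhx15 (chr5:52157578-52160229) had 15.7, 20.9 and 13.4% in WT CMP and 11.3, 10.5 and 8.60% in WT MEP (log2 -0.81 ± 0.31, edgeR adjusted p = 0.0377). Intron 4 of Lsm5 (chr6:56701290-56702095) had 1.26, 2.12 and 0.739% in WT CMP and 0.312, 0.164 and 0% in WT MEP (log2 -3.58 ± 0.83, edgeR adjusted p = 0.0227). The groups did not overlap in these 2 introns either. None of the 3 calls held with limma on the log2 ratios or with the smaller end of each intron, and without replicate 3 of WT MEP 0 were called, without replicate 2 of WT MEP or of WT CMP 1. The call on Dhx15 was also lost without a filter on low counts and without replicate 1 of WT CMP or of WT MEP. Without replicate 1 of WT GMP, 1 member intron was called for WT MEP against WT GMP. No member intron was called for WT MEP against WT GMP (0.496% of all introns) or WT GMP against WT CMP (0.0824%). Members with an unadjusted edgeR p under 0.05 numbered 21 and 25, and limma on the log2 ratios called 0 and 0. The shares of all introns under that unadjusted threshold are not given here.

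**Figure D4:**
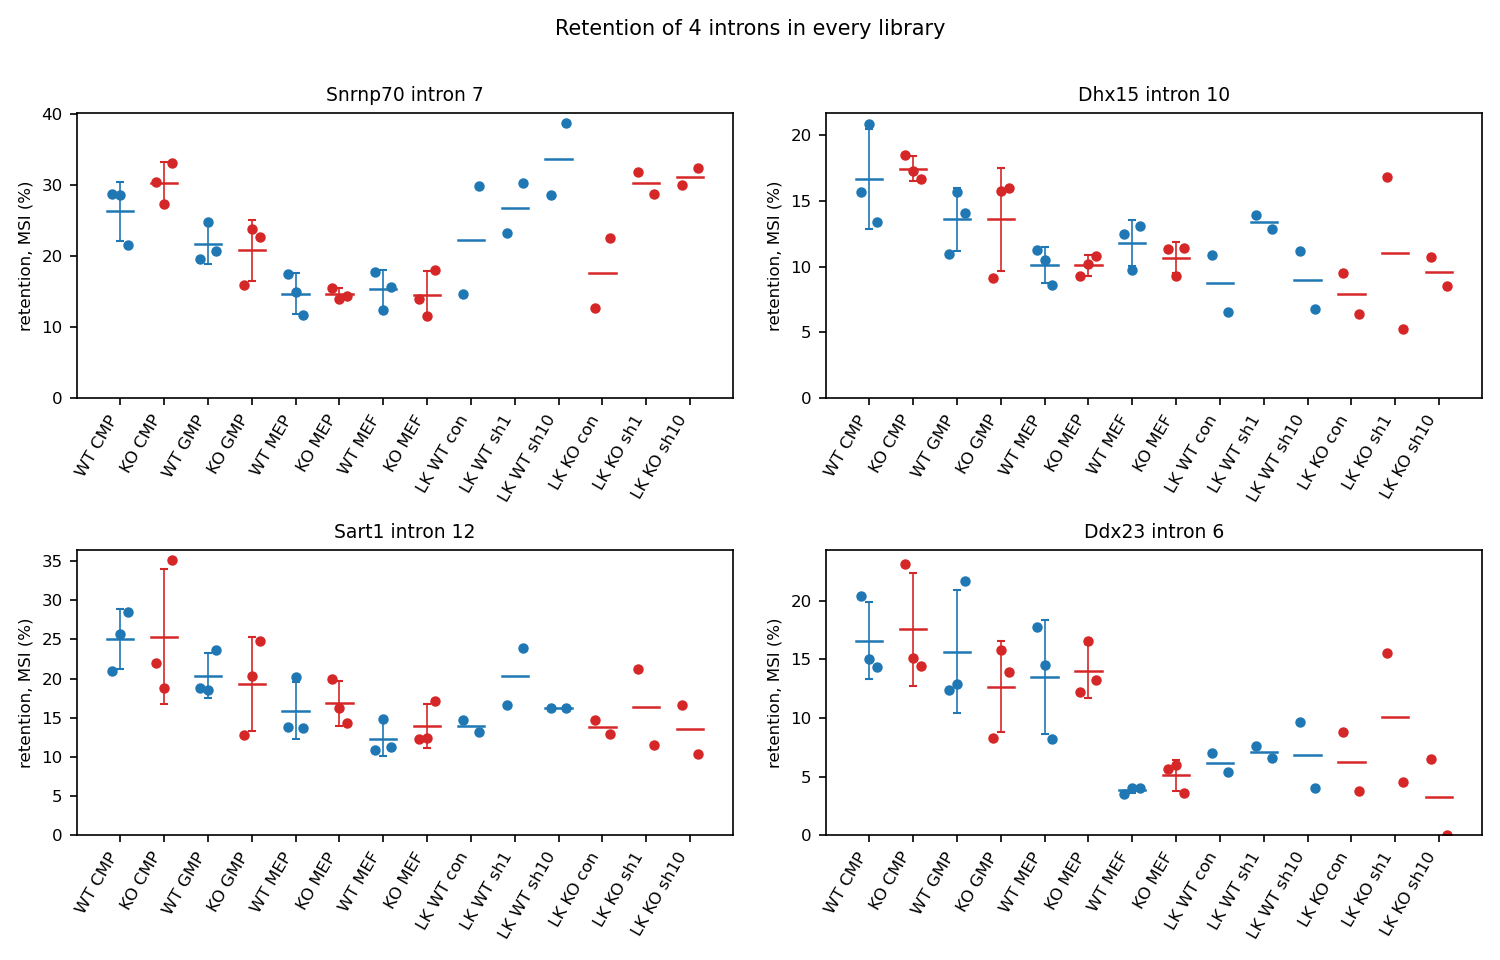
Retention in percent of intron 7 of Snrnp70, intron 10 of Dhx15, intron 12 of Sart1 and intron 6 of Ddx23 in the 14 groups (LK is Lin-Kit+), with 1 point per library, a line at the mean and, where a group has 3 libraries, a bar of 1 SD (WT in blue, KO in red). For Ddx23 the WT MEF libraries, at 3.55% to 4.05%, lie below all progenitor libraries, and the WT MEP libraries lie below the WT CMP libraries for Snrnp70.

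Fibroblasts differed from progenitors in 60 of 431 tested member introns in 29 genes, against 14.6% of all 70827 introns. The number of member introns called is close to that general share, so it does not set the members apart. Of these 44 in 24 genes were lower in MEF (12.3% of all introns were called lower) and 16 in 12 genes higher (2.3%), and 7 genes had introns of both kinds. The largest decreases were in intron 14 of Snrnp200, with 2.74% ± 1.31 (SD, n = 9) in progenitors and 0.0742% ± 0.129 (SD, n = 3) in fibroblasts (log2 -3.81 ± 0.51, edgeR adjusted p = 0.000204), and intron 6 of Snrpb, with 1.25% ± 0.668 (SD, n = 9) in progenitors and 0.172% ± 0.0800 (SD, n = 3) in fibroblasts (log2 -2.66 ± 0.51, edgeR adjusted p = 8.53e-05). Intron 11 of Prpf31 fell from 4.23% to 0.834% (log2 -2.60 ± 0.44), and intron 3 of Prpf38a (-2.62 ± 0.69) and intron 5 of Sf3b4 (-2.59 ± 0.64) changed by a similar size. Exons of other transcripts, annotated as processed transcripts, overlap intron 14 of Snrnp200 and intron 3 of Prpf38a. Reads of those exons can count as exon-intron reads, and whether the use of these transcripts changed was not tested. Ddx23 had 5 lower introns, among them intron 6, which fell from 15.2% to 3.86% (log2 -2.09 ± 0.32, edgeR adjusted p = 2.19e-07). Of the introns retained most in progenitors, intron 12 of Sart1 (-0.84 ± 0.30) and intron 13 of Dhx16 (-1.16 ± 0.28) fell too.

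The largest increases in MEF were in intron 5 of Cwc22, with 0.175% ± 0.271 (SD, n = 9) in progenitors and 2.82% ± 1.15 (SD, n = 3) in fibroblasts (log2 4.12 ± 0.90, edgeR adjusted p = 0.000994), intron 4 of Prpf31 (3.13 ± 1.10), intron 1 of Dhx38 (2.60 ± 0.71), intron 5 of Snrnp40 (2.15 ± 0.60) and intron 13 of Sf3b3 (1.96 ± 0.43). An exon of a processed transcript overlaps intron 5 of Cwc22, so its value can include reads of that exon. Intron 4 of Prpf38b rose from 15.5% to 29.6% (log2 1.24 ± 0.31, edgeR adjusted p = 0.000246), and intron 11 of Prpf31, given above, went the other way from its intron 4. The count was 39 without a filter on low counts and 35, 37 and 39 without replicates 4, 5 and 6 of WT MEF, and the calls for intron 3 of Prpf38a, intron 5 of Sf3b4, intron 4 of Prpf31, intron 1 of Dhx38 and intron 5 of Snrnp40 were lost under some settings. Leaving out MEF replicate 4 or 5 lost intron 3 of Prpf38a and intron 5 of Sf3b4, leaving out replicate 5 or 6 lost intron 1 of Dhx38, and leaving out replicate 4 lost intron 5 of Snrnp40. Intron 3 of Prpf38a was also lost without replicate 2 of WT CMP or 3 of WT GMP. Intron 4 of Prpf31 was lost when any 1 of 10 of the 12 libraries was left out, all but replicate 1 of WT CMP and of WT GMP.

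No member intron was called for loss of Zrsr2 or for the Zrsr1 hairpins. Over all introns 0.00659% were called for KO against WT in CMP, 0.00824% in GMP, 0.00494% in MEP and 0.0% in MEF (198 member introns tested) and in each comparison of Lin-Kit+ cells (281 tested). Members with an unadjusted edgeR p under 0.05 numbered 25 of 426 in CMP, 7 in GMP, 9 in MEP and 6 in MEF. The shares of all introns under the unadjusted threshold are not given here, so such counts are not a result about the members. In Lin-Kit+ cells they numbered 1 for KO with the control hairpin, 8 for KO with the Zrsr1 hairpins, 3 for the hairpins in WT cells and 6 in KO cells, and limma on the log2 ratios called 0 in each of these 8 comparisons. For the differences between KO effects 20 (GMP minus CMP), 15 (MEP minus CMP) and 14 (MEP minus GMP) had an unadjusted edgeR p under 0.05, and 3 for the difference between hairpin effects, again with 0 called by either tool (0.0%, 0.00165%, 0.0% and 0.0% of all introns). In CMP intron 9 of Sf3a3 had the smallest p, with 0.0377, 0.130 and 0.243% in WT and 1.40, 0.366 and 3.07% in KO libraries (log2 3.22 ± 0.93, edgeR adjusted p = 0.114), and was called when introns needed a mean of 20 exon-intron reads. In GMP it was intron 9 of Plrg1 (log2 3.37 ± 0.76, edgeR adjusted p = 0.999), in MEP intron 14 of Cdc5l (3.38 ± 1.18, adjusted p = 0.660) and in MEF intron 4 of Prpf3 (1.66 ± 0.48). For KO against WT with the control hairpin it was intron 2 of Snrnp70 (3.29 ± 1.47). For the hairpins it was intron 7 of Prpf39 in WT cells (-3.02 ± 1.32) and intron 3 of Sf3b3 in KO cells (-2.23 ± 1.19).

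The 2 U12-type introns printed above were not called in these comparisons either. Intron 2 of Lsm5 was retained at 3.37, 2.47 and 2.80% in WT CMP and 3.17, 2.29 and 1.17% in KO CMP, and at 1.17 to 3.37% over all 18 progenitor libraries. In fibroblasts it stood at 2.13, 1.38 and 3.26% in WT and 5.35, 4.06 and 3.15% in KO (log2 0.95 ± 0.39, edgeR adjusted p = 0.999), with 1 KO library below the highest WT library. In Lin-Kit+ cells it was 2.74 and 2.03% in the WT control of experiments 1 and 2, 1.88 and 5.83% and 2.81 and 3.42% with sh1 and sh10, 4.53 and 7.36% in the KO control, and 3.66 and 2.86% and 3.58 and 8.54% in KO cells with sh1 and sh10. The hairpin libraries lay on both sides of their controls, with no common direction. The KO control was above the WT control in both experiments. With the hairpins KO was above WT for sh10 in both experiments and for sh1 in experiment 1, and below WT for sh1 in experiment 2. Intron 1 of Lsm8 was retained at 0.227 to 1.45% over progenitors and fibroblasts.

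Cassette exons, which a transcript can include or skip, could be read in 6 cases, in Lsm2, Cwc22, Lsm4, Lsm8 and Lsm5 (2 exons). None was called in any comparison, against 0.0% of all tested exons in each comparison of KO or hairpins, 0.329% in WT GMP against WT CMP, 5.63% in WT MEP against WT CMP, 4.03% in WT MEP against WT GMP and 25.7% in WT MEF against WT progenitors. Of the 6 exons 5 were tested in progenitors and fibroblasts and 4 in Lin-Kit+ cells, with limma, and the exons with an unadjusted p under 0.05 numbered 3 for KO in CMP, 1 each for KO in GMP, KO in MEP, the hairpins in KO cells and WT MEF against WT progenitors, and 0 in the other 8 comparisons. Exon 2 of Lsm5 (chr6:56703314-56703409, 96 bases) lies directly before the U12-type intron 2, and the junction that skips it ends at the end of that intron. The exon after that intron was included at only 21.9 to 39.4% over all libraries. By this measure the start of intron 2 was more often joined past that exon than to it. Reads over a longer gap also count at inner introns, so reads that skip exon 2 can include reads that pass both exons. In CMP its inclusion was 95.1, 95.97 and 95.8% in WT and 88.8, 92.5 and 94.2% in KO (log2 ratio of inclusion to skipping -0.91 ± 0.32, limma adjusted p = 0.556). In GMP it was 94.4, 93.7 and 91.5% in WT and 85.7, 91.7 and 90.1% in KO (-0.72 ± 0.32, limma adjusted p = 1). In MEP it was 94.5, 96.5 and 94.1% in WT and 94.5, 92 and 90.8% in KO (-0.65 ± 0.32, limma adjusted p = 1). All 3 KO libraries were below all 3 WT libraries in CMP, and the genotypes overlapped in GMP and MEP.

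In fibroblasts the inclusion of Lsm5 exon 2 was 92.8, 93.8 and 93.1% in WT and 88.2, 93.4 and 94.1% in KO (log2 -0.22 ± 0.34). In Lin-Kit+ cells of experiments 1 and 2 it was 95.1 and 96.6% in the WT control, 95.3 and 87.9% with sh1 and 93.6 and 93.9% with sh10 (-0.80 ± 0.63, limma adjusted p = 0.996). In KO cells it was 95.5 and 98.3% with the control, 85.2 and 88.1% with sh1 and 78.6 and 91.02% with sh10 (-2.40 ± 0.63, limma adjusted p = 0.684). In KO cells both hairpins were below the control in both experiments, and in WT cells this held for sh10 in both and for sh1 in experiment 2. The difference between the hairpin effects in KO and WT cells was -1.60 ± 0.90 (limma adjusted p = 0.999), and no value passed the adjusted threshold. Skipping rested on 6 to 168 reads per library.

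**Figure D5:**
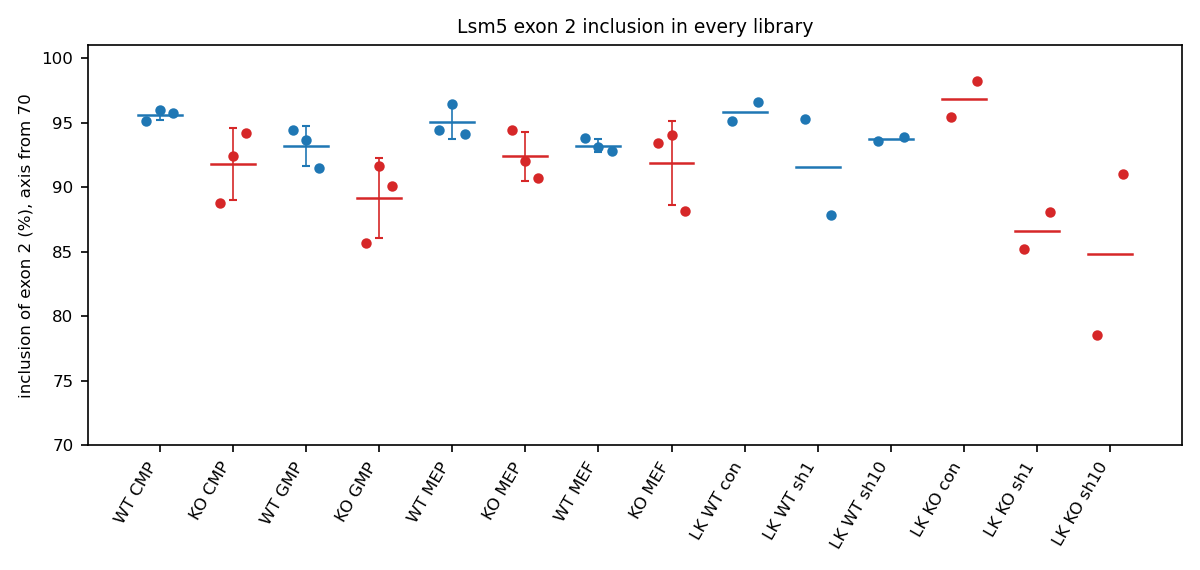
Inclusion in percent of Lsm5 exon 2, the exon before the U12-type intron 2, in each library of the 14 groups, on an axis that starts at 70. The WT progenitor and MEF libraries lie between 91.5% and 96.5%, and the lowest library is the KO sh10 library of experiment 1, at 78.6%.

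The next exon of Lsm5 (chr6:56703006-56703033, 28 bases) was included at 21.9 to 39.4% over all libraries, with no call between genotypes, hairpins or cell types. In Cwc22, which encodes the factor that loads part of the exon junction complex, an exon of 61 bases (chr2:77940302-77940362) was included at 11.4 to 27.4% in progenitors and 19.7 to 39.2% in fibroblasts (WT MEF against WT progenitors log2 0.78 ± 0.36, limma adjusted p = 0.119). The exon of Lsm4, of 119 bases, was included at 97.1 to 99.8% and that of Lsm2 at 0 to 1.05%. The exon of Lsm8 (chr6:18850911-18851001, 91 bases) was included at 0.380, 0.390 and 0.231% in WT CMP and at 0% in all 3 KO CMP libraries (log2 -2.88 ± 0.54, limma adjusted p = 0.107), on 0 to 5 inclusion reads per library. In MEP the same exon had higher values in KO, with 0.323, 0.138 and 0.232% in WT and 0.588, 0.786 and 0.498% in KO (log2 1.35 ± 0.54, limma adjusted p = 0.977), on 2 to 11.5 inclusion reads per library. The genotypes did not overlap in either cell type, and neither difference was called. In GMP it was 0.103, 0.177 and 0.211% in WT and 0, 0.155 and 0.271% in KO, where the genotypes overlapped.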

How the data were processed

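One table per library, 36 in all, lists the same 219945 introns. Per the file headers, the deposited tables hold whole-number counts of reads at either exon-intron boundary, counts of spliced reads, the fraction of the intron that is covered (not used) and a percent of retention. The deposited percent, recomputed from the counts, differed by at most 2.8e-14. Polyadenylated RNA was made into libraries with a TruSeq kit (progenitors, fibroblasts) or a NEBNext Ultra kit (Lin-Kit+), per the labels' protocols. Per the submitters' processing notes the build was mm10. How reads were aligned and counted, and whether strand was used, is not given in the sources used here, so reads of overlapping, antisense or near-identical genes cannot be told apart.

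All introns matched GENCODE M21, and 1887 belonged to more than 1 gene. Reads over several introns enter the table at every one of them, and gene counts are sums over introns. Therefore no counting intervals are given. Precision is limited by the number of libraries. Genes were tested on summed spliced counts with edgeR 4.0.16 in R 4.3.3, by its quasi-likelihood test with TMM factors and filterByExpr. P-values were adjusted by Benjamini-Hochberg over all features, with a threshold of 0.05. Shares of all features are shares called at this adjusted threshold. Counts of members with an unadjusted p under 0.05 therefore cannot be set against them. Each group had 1 coefficient, in separate fits for progenitors, fibroblasts, Lin-Kit+ cells and, for fibroblasts against progenitors, the 24 TruSeq libraries. Hairpin comparisons use the mean of sh1 and sh10. Introns were tested with edgeR's diffSpliceDGE on exon-intron and spliced counts, with size and standard error from limma 3.58.1 on log2 ratios with a pseudocount of 0.5. In simulated data this intron test made more false calls than its threshold allows. Cassette exons were tested with limma on log2 ratios of inclusion to skipping. Inclusion was the mean of both inclusion junctions minus the skipping junction, since reads that skip the exon are counted there too, which differs from the planned formula.

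By the labels, progenitor libraries with 1 genotype and number share a mouse (correlations of their deviations -0.0383 to 0.0853), and Lin-Kit+ libraries share an experiment (0.3211 to 0.4179). No 2 libraries of a group were identical. Nothing says that the Lin-Kit+ experiments used separate mice, so those p-values may measure technical spread. Named are all called genes, introns and exons (where over 10 were called, the 5 largest per direction), else up to 4 with the smallest p, the highest and lowest gene of each role, the 15 most retained introns, cassette exons and U12-type introns. Other names were chosen after their values were seen. Alternatives were DESeq2 1.42.0, limma-voom, other filters, pseudocounts, scalings and gene sums, blocks, and leaving out each library. The members and lists were chosen with earlier results of these data known.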

Additional observations from a re-analysis of the deposited data

Results flagged for a closer look

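For 1 exon and 6 introns the KO libraries lay entirely above the WT libraries in one cell type and entirely below them in another. None of these effects of KO was called where it was tested, and intron 9 of Snrnp40 and intron 14 of Snrnp200 had too few reads to be tested in MEF. The difference between the cell types was not tested for them. Some of these introns had been picked for the smallest p-values in a comparison of KO with WT. How often the pattern occurs over all introns and exons was not counted, so the number found here cannot be set against a general share. All values are the mean over KO libraries minus the mean over WT libraries, in percentage points. Inclusion of the Lsm8 exon differed by -0.334 in CMP and 0.393 in MEP. Retention of intron 9 of Snrnp40 differed by -1.22 in CMP and 0.554 in MEF. For intron 14 of Snrnp200 the difference was -1.74 in CMP and 0.777 in MEF. Intron 4 of Prpf3 differed by -0.689 in GMP and 3.51 in MEF. In Lin-Kit+ cells carrying the control hairpin, where each genotype has only 2 libraries, intron 42 of Snrnp200 differed by -1.23 (1.40 in GMP), intron 3 of Sf3a2 by -0.546 (1.04 in MEF) and intron 11 of Ddx23 by -0.642 (0.691 in CMP). The Lsm8 values rested on 0 to 11.5 inclusion reads per library in CMP and MEP.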

How the results depend on the processing

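Counts of called member genes kept within 1.5 times of the reported count in each comparison and alternative run, except as follows. For Zrsr1 hairpins against control, 2 members were called in WT cells and 7 in KO cells with the experiment as a block, against 0 without it. For WT GMP against WT CMP, library totals without TMM factors, a setting added after seeing the data, gave 10 calls against 4, and leaving out 1 library gave 4 to 12. For introns, requiring a mean of 20 exon-intron reads gave 1 call for KO against WT in CMP (0 reported), 5 for WT MEP against WT CMP (3 reported) and 1 for WT MEP against WT GMP (0 reported). WT MEP against WT CMP gave 0 with limma on log2 ratios, 0 with the smaller end of each intron, 0 with the mouse as a block in limma, and 0 to 3 without 1 library. WT MEP against WT GMP gave 0 to 1 without 1 library. WT MEF against WT progenitors gave 39 calls without a filter on low counts, against 60, and 35 to 58 without 1 library. Of the cassette exons, 1 was called for WT MEF against WT progenitors with a pseudocount of 2, and 1 without a filter, against 0. Why these counts moved was not tested. Over all alternatives 577 counts stayed within 1.5 times and 20 did not, and no called value changed sign.

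The replicate number as a block was also fitted for KO against WT, where numbers share no mouse, and called 0 member genes in every cell type, as without it. The block ended or added no call on a member beyond those given here and beside the results. Lin-Kit+ groups have 2 libraries, so leaving 1 out assumes that the remaining one varies like the other groups. What depth limits was not compared with other limits. The exon of Lsm8 rested on 0 to 11.5 inclusion reads per progenitor library.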
